A study of Mus musculus with 64 samples.

Results

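The genes described here are 30 genes of GABA signalling and of the inhibitory interneurons that release GABA, the main inhibitory transmitter of the hippocampus. They were taken by symbol: 9 subunits of the GABA-A receptor, both subunits of the GABA-B receptor, the scaffold gephyrin, 3 genes of GABA synthesis and vesicle loading, 2 of its uptake and breakdown, 2 chloride transporters and 11 genes that mark or shape interneurons. All 30 were measured in the ventral hippocampus (vHPC), among 21088 genes, and all 30 in the dorsal hippocampus (dHPC), among 18283 genes, with 18257 genes in both. RNA came from hMet mice, heterozygous for the BDNF Val66Met variant, and from wildtype (WT) C57BL/6 mice, males and females, which from 2 months of age drank corticosterone (CORT, 25 mg/l in 1% ethanol) or vehicle (1% ethanol) for 6 weeks. Each library pooled 2 animals, and the labels list 4 libraries in each of 16 groups. CORT is the main glucocorticoid of rodents, and oral dosing is used to disturb the stress axis. The variant came from an engineered line kept by in-house breeding. The libraries held whole hippocampal tissue, so fewer cells of a type and less RNA per cell cannot be told apart.

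GABA is made from glutamate by the 2 decarboxylases that Gad1 and Gad2 encode, is loaded into vesicles by the transporter Slc32a1 and is cleared by transporters such as Slc6a11 before Abat breaks it down. It acts on GABA-A receptors, chloride channels of 5 subunits whose makeup sets where on the neuron the receptor sits and how it responds to drugs, and on GABA-B receptors, which are coupled to G proteins. Slc12a2 brings chloride into neurons and Slc12a5 takes it out, which sets the direction of the GABA-A current. In the hippocampus interneurons fall into classes named for the peptides and proteins they make, among them parvalbumin (Pvalb), somatostatin (Sst), cholecystokinin (Cck) and reelin (Reln).

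The values were the deposited limma-voom results of the 8 comparisons of CORT with vehicle, 1 for each sex, genotype and region, on the log2 scale. These tables give a mean level over the libraries of a region, a fold change and a moderated t, with no value per library, so no spread between libraries and no level per group is given. A ± beside a log2 fold change is the moderated standard error of the fit. The labels list 4 CORT and 4 vehicle libraries for each comparison, and whether all were fitted in the vHPC is not known. No table names the direction of its fold change, and a positive one is taken here to mean more RNA under CORT. Means over groups and differences between groups were built from these fold changes and their errors. In the vHPC the fit had 22 residual degrees of freedom in place of the 24 that 32 libraries in 8 groups leave, as in the dHPC, so libraries were left out or covariates were used there, and means and differences in the vHPC assume that the comparisons do not covary. A gene is said to rise or fall here only at a Benjamini-Hochberg adjusted p under 0.05 over all genes of a region, and counts at unadjusted p under 0.05 are given as descriptions. An adjusted p is printed beside each single value that had an unadjusted p under 0.05.

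Markers of the labelled tissue were present in both regions. The excitatory neuron genes Camk2a and Slc17a7 averaged 11.99 and 10.41 log2 CPM (library-scaled read counts) in the vHPC, against 12.12 and 10.49 log2 CPM in the dHPC. The ventral marker Trhr averaged 4.07 log2 CPM in the vHPC and 0.60 log2 CPM in the dHPC, and the dorsal marker Lct averaged 4.08 log2 CPM in the vHPC and 6.33 log2 CPM in the dHPC. Prkcd, a marker of the thalamus beside the dHPC, was present at 3.53 log2 CPM in the vHPC and 5.65 log2 CPM in the dHPC. Of the other thalamic markers listed, Rora and Calb2 went the other way and the rest were higher in the dHPC. Rora averaged 5.68 log2 CPM in the vHPC and 5.44 log2 CPM in the dHPC, and Calb2 5.74 and 4.73 log2 CPM. Choroid plexus Ttr was present at 8.63 log2 CPM in the vHPC and 9.98 log2 CPM in the dHPC.

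The levels of the GABA and interneuron genes differed more between the regions than those of most genes. Their median vHPC minus dHPC difference of mean levels was 0.24 on the log2 CPM scale, with 21 genes higher in the vHPC and 9 lower. Over all 18257 genes the median was -0.01, with 8785 higher and 9472 lower. The median size of the difference, whatever its sign, was 0.44 for these genes and 0.21 for all genes. Kit, a receptor tyrosine kinase found on interneurons of the molecular layers, had the largest difference, 1.35. Gabra3 (0.89), Erbb4 (0.85), the receptor of neuregulin on interneurons, the cannabinoid receptor gene Cnr1 (0.79), the serotonin receptor gene Htr3a (0.78) and Gabrb1 (0.70) followed. Gabrd, the delta subunit of receptors outside the synapse, had -1.08, Pvalb -0.64, Cck -0.56 and Slc12a2 -0.43, being lower in the vHPC. The other 20 genes lay between -0.34 (Gabra4) and 0.66 (Reln). The regions were fitted separately and the tables hold no spread between libraries, so these differences carry no test. Markers of other cells differed between the regions too. All oligodendrocyte markers listed were lower in the vHPC, such as Mbp (10.44 log2 CPM against 11.83 in the dHPC). The excitatory neuron markers listed were also lower there, such as Neurod2 (6.66 against 7.27), except Zbtb20 (8.16 against 7.86). The part of tissue makeup in the differences of the 30 genes was not tested.

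Compared per length, as log2 CPM less log2 of the exon length in kb, the interneuron peptide genes stood at the top in both regions. Sst averaged 7.83 in the vHPC and 7.75 in the dHPC on this scale, and Cck 7.01 in the vHPC and 7.56 in the dHPC. Gabbr1 came next, with 6.52 in the vHPC and 6.65 in the dHPC, and Gabra5, the alpha subunit typical of hippocampal pyramidal cells, followed, with 6.05 in the vHPC and 6.22 in the dHPC. Gabrg3 was the lowest of the 30 in both regions, with 1.24 in the vHPC and 0.66 in the dHPC, just under Reln with 1.80 in the vHPC and 1.14 in the dHPC. The 4 highest and the 4 lowest genes were the same in both regions, in the same order, while Pvalb stood at rank 19 in the vHPC and rank 10 in the dHPC.

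**Figure D1:**
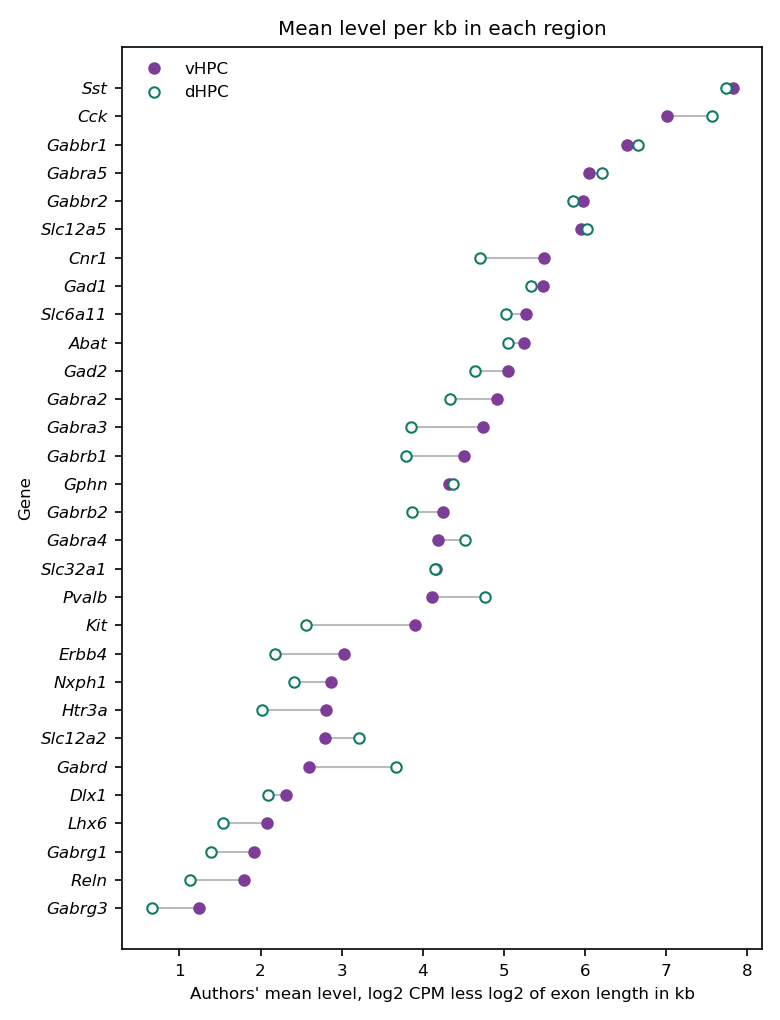
Mean level of each of the 30 genes per kb of exon (x axis, log2 CPM less log2 of the exon length in kb) in the vHPC (filled) and the dHPC (open), with genes in order of the vHPC level. Sst, Cck and Gabbr1 lie at the high end in both regions, and the widest gaps between regions are those of Kit (1.35) and Gabrd (-1.08).

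In the vHPC the genes at unadjusted p under 0.05 came mostly from hMet males and WT females, and 0 passed the adjusted threshold in any single comparison. In hMet males 7 of 30 genes were higher and 3 lower at unadjusted p under 0.05, where 9.33% of all genes were higher and 8.98% lower. WT males had 1 higher and 1 lower, beside 3.43% and 3.81% of all genes. Females gave 0 higher and 0 lower in the hMet group, beside 3.18% and 2.48% of all genes, and 5 higher and 0 lower in the WT group, beside 1.52% and 1.66%. The share of these genes that was higher (23.3% in hMet males and 16.7% in WT females) exceeded that of all genes in those 2 groups. The share that was lower (10.0% and 0%) was close to that of all genes or below it. The 30 genes were chosen with earlier results of these data known. All of them lay at 3.86 log2 CPM or above in the vHPC, while all genes reached down to -5.08 log2 CPM. These shares are therefore a description and not a test. At adjusted p under 0.05 the share of all genes was 0.659% for the hMet males, 0.00948% for the WT males and 0% for both groups of females, and 0 of the 30 genes passed in each group by limma's moderated t. The smallest adjusted p in hMet males was 0.0683, of Kit.

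In the dHPC the counts were smaller than in the vHPC in both groups of males and again 0 in hMet females. In hMet males 1 gene was higher and 0 lower at unadjusted p under 0.05, beside 2.94% and 3.4% of all genes. WT males and hMet females had 0 in either direction, beside 2.01% higher and 2.54% lower in WT males and 1.68% higher and 1.55% lower in hMet females. WT females had 3 higher and 3 lower, beside 2.58% and 3.91% of all genes. Adjusted p under 0.05 was reached by 0.0164% of all genes in hMet males, by 0% in each of the other groups and by 0 of the 30 genes in each comparison. Moderated standard errors of these genes had a median of 0.13 in each dHPC comparison. In the vHPC the median was 0.09 in WT males and 0.08 in each other group. The errors were thus larger in the dHPC and, within the vHPC, largest in WT males.

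**Figure D2:**
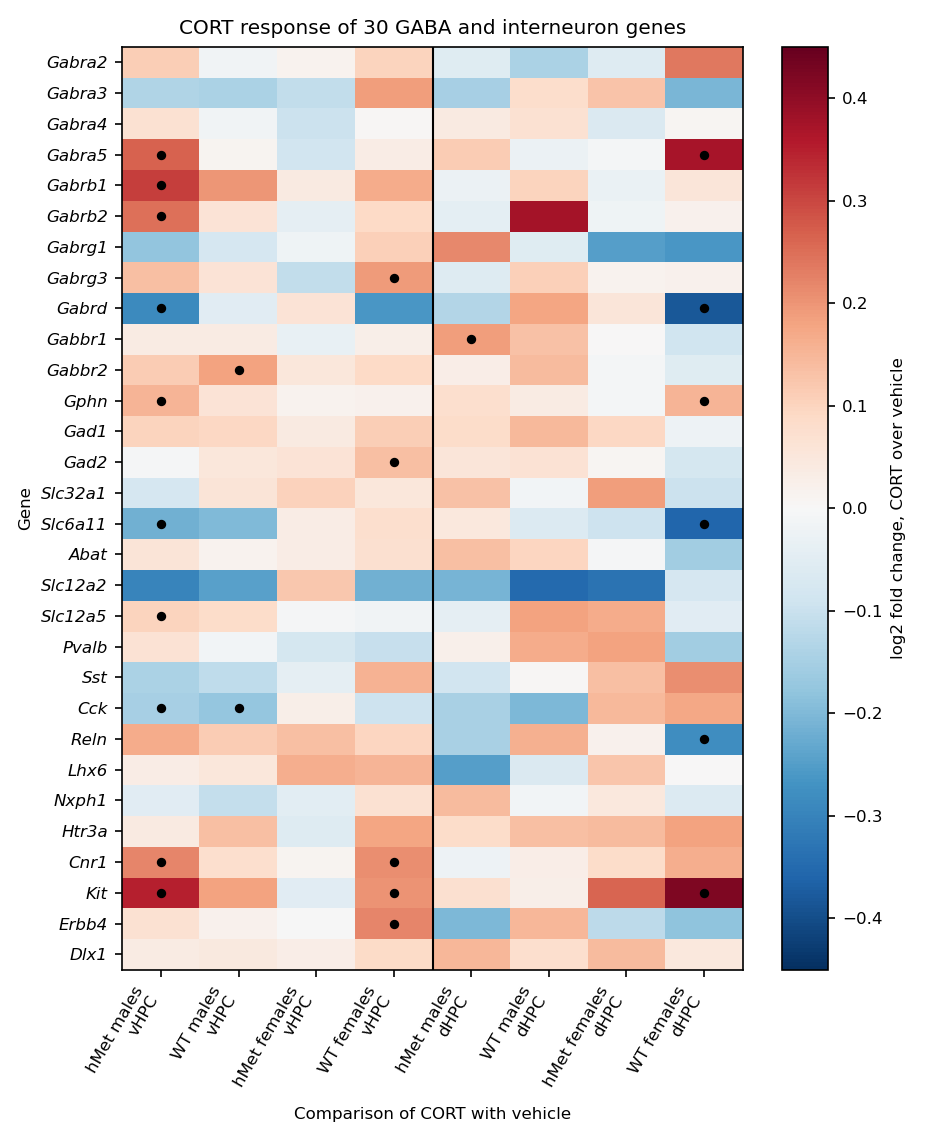
Log2 fold change with CORT over vehicle (color) for the 30 genes (rows) in the 8 comparisons (columns, vHPC on the left and dHPC on the right), with dots at unadjusted p under 0.05. Dots gather in hMet males (10) and WT females (5) in the vHPC and in WT females (6) in the dHPC.

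**Figure D3:**
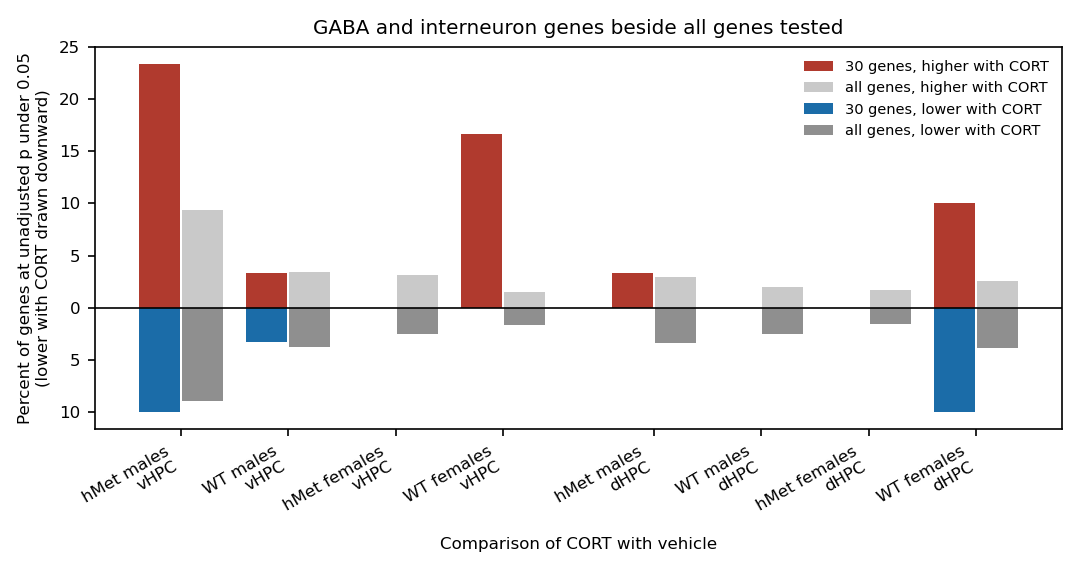
Percent of the 30 genes (colored) and of all genes tested (grey) at unadjusted p under 0.05 in each comparison, with genes higher with CORT drawn upward and genes lower drawn downward. The share of the 30 genes that was higher was 23.3% in hMet males and 16.7% in WT females in the vHPC, where 9.33% and 1.52% of all genes were higher.

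Averaged over both genotypes, Kit and Gabrb1 rose with CORT in the vHPC of males. These were the only calls among the 30 genes at adjusted p under 0.05 in the 20 results of the main settings. Kit (ENSMUSG00000005672, chromosome 5 of GRCm38 from 75574916 to 75656722, plus strand) had a mean log2 fold change of 0.27 ± 0.07, a fold of 1.20 (95% interval of the log2 fold change 0.12 to 0.41, adjusted p = 0.0322, limma's moderated t on combined comparisons). Gabrb1 (ENSMUSG00000029212, chromosome 5 from 71658113 to 72149037, plus strand), a beta subunit, had 0.26 ± 0.07, a fold of 1.19 (0.11 to 0.40, adjusted p = 0.0457). Just outside the threshold were Cck (ENSMUSG00000032532, chromosome 9 from 121489824 to 121495694, minus strand), with -0.16 ± 0.05 and an adjusted p of 0.0502, and Gabbr2, with 0.15 ± 0.05 and an adjusted p of 0.0629. At unadjusted p under 0.05 there were 8 higher (Gabrb1, Gabrb2, Gabbr2, Gphn, Gad1, Slc12a5, Cnr1 and Kit) and 2 lower (Slc6a11 and Cck) of the 30, beside 10% and 10.5% of all genes, and at adjusted p under 0.05 there were 2, both higher, beside 1.67% of all genes higher and 3.58% in either direction. Both calls ended with unmoderated standard errors (adjusted p = 0.0530 for Kit and 0.0700 for Gabrb1), and neither fold reached the 1.3 that the study's rule for DEGs asks.

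Kit and Gabrb1 were positive in males of both genotypes in the vHPC. Kit had log2 fold changes of 0.35 ± 0.09 in hMet males (adjusted p = 0.0683), 0.18 ± 0.10 in WT males, -0.05 ± 0.09 in hMet females and 0.20 ± 0.09 in WT females (adjusted p = 1.00). The intervals of WT males and hMet females included 0. Gabrb1 had 0.31 ± 0.10 in hMet males (adjusted p = 0.1), 0.20 ± 0.11 in WT males, 0.04 ± 0.10 in hMet females and 0.17 ± 0.10 in WT females, with hMet males alone at unadjusted p under 0.05. Neither was shown to respond differently in the sexes: the males minus females difference was 0.19 for Kit (95% interval -0.0036 to 0.39, adjusted p = 0.429) and 0.15 for Gabrb1 (-0.05 to 0.36, adjusted p = 0.549). In the dHPC Kit had 0.07 ± 0.18 in hMet males, 0.03 ± 0.18 in WT males, 0.26 ± 0.18 in hMet females and 0.42 ± 0.18 in WT females (adjusted p = 0.745). Kit was thus above 0 in 7 of 8 comparisons. Gabrb1 in the dHPC had -0.03 ± 0.16 in hMet males, 0.10 ± 0.16 in WT males, -0.03 ± 0.16 in hMet females and 0.06 ± 0.16 in WT females, and the difference between regions was not tested.

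The promoters of Kit, Gabrb1 and Cck are shown because these genes had the smallest adjusted p. Each window runs from 250 bases before to 50 after a start site of RefSeq on GRCm38.p6, on the strand of the gene. Kit and Gabrb1 have 2 windows each and Cck 1, and the window nearest to the GENCODE start of the gene is shown. Capitals mark the GC box (GGGCGG) and the core of the cyclic AMP response element (TGACG) on either strand.
Kit, chr5:75574737-75575036, plus strand: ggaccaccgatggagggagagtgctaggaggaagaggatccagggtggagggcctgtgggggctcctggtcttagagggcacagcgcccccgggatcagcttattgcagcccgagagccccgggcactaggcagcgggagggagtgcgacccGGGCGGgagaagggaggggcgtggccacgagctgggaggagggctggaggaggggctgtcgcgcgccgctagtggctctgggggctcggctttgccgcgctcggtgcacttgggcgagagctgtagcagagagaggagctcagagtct
Gabrb1, chr5:71657671-71657970, plus strand: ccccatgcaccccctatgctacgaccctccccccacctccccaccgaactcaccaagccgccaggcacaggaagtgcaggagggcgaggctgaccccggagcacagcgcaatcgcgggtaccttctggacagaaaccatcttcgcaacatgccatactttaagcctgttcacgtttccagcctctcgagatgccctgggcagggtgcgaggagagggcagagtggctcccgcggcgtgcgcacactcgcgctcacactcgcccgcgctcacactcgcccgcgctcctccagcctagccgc
Cck, chr9:121495645-121495944, minus strand: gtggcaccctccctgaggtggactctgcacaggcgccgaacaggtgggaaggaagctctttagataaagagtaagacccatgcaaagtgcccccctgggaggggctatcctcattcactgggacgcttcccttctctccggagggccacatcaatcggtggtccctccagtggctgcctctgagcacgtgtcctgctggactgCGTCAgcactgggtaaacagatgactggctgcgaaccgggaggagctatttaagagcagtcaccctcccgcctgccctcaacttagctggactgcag
The Kit window shown held 1 GC box and the Cck window 1 TGACG core, and neither motif was in either window of Gabrb1. The glucocorticoid receptor binds an element made of the arm AGAACA, a spacer of 3 bases and the same arm on the other strand, and not even the arm was in the 3 windows on either strand. Of the 30 genes 26 had a window, 37 windows in all, and 0 of these held the full element, which 0.00913% of all 32851 windows held. The arm was in windows of Gabrb2, Gabrg1, Pvalb and Lhx6, in 13.5% of the 37 windows and 19.0% of all windows. GC boxes were in windows of 16 genes, in 51.4% of the 37 and 35.7% of all, and the TGACG core in those of Gabrb2, Gad2, Sst and Cck, in 10.8% of the 37 and 20.8% of all. The median GC content was 61.3% in the 37 windows and 52.7% in all, and its part in these shares was not tested. These are the motifs described here out of 12 searched, chosen after the matches were seen.

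Gabrb1 lies in a cluster of receptor genes on chromosome 5 with Gabrg1, Gabra2 and Gabra4. Gabra4 runs on the opposite strand and overlaps the start of Gabrb1 by 196 bases, and whether the counting used strand is not given in the sources used here, so reads there cannot be assigned to either with certainty. Averaged over genotypes in the vHPC of males, Gabrb1 rose, while Gabra2 had 0.05 ± 0.06, Gabra4 0.03 ± 0.05 and Gabrg1 -0.13 ± 0.07, none at unadjusted p under 0.05, and the differences between neighbours were not tested.

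Among the other GABA-A subunits, Gabrb2 and Gabra5 were higher and Gabrd lower with CORT in the vHPC of hMet males at unadjusted p under 0.05. Gabrb2, the beta subunit of many synaptic receptors, had 0.25 ± 0.08 there (adjusted p = 0.122). Gabra5 had 0.26 ± 0.11 in hMet males (adjusted p = 0.192), 0.01 ± 0.12 in WT males, -0.09 ± 0.11 in hMet females and 0.03 ± 0.11 in WT females. In the dHPC it had 0.11 ± 0.17 in hMet males, -0.03 ± 0.17 in WT males, -0.01 ± 0.17 in hMet females and 0.37 ± 0.17 in WT females (adjusted p = 0.763). The 2 larger responses of Gabra5 thus came from different sexes and regions.

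Gabrd had the opposite sign to Gabra5 in those 2 comparisons. In the vHPC it had -0.29 ± 0.13 in hMet males (adjusted p = 0.237), -0.05 ± 0.15 in WT males, 0.06 ± 0.13 in hMet females and -0.26 ± 0.13 in WT females. The dHPC gave -0.13 ± 0.15 in hMet males, 0.18 ± 0.16 in WT males, 0.06 ± 0.16 in hMet females and -0.38 ± 0.16 in WT females (adjusted p = 0.745). Gabrg3, a gamma subunit, had 0.19 ± 0.08 in WT females in the vHPC (adjusted p = 1.00) and -0.11 ± 0.08 in hMet females. Its hMet minus WT difference of -0.30 ± 0.11 (adjusted p = 0.92) was the only one of the 30 at unadjusted p under 0.05 between the genotypes of either sex in either region. Gabra2, Gabra3, Gabra4 and Gabrg1 were at unadjusted p under 0.05 in no comparison, with log2 fold changes of -0.26 to 0.24.

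The GABA-B subunits, which work as a pair, were positive in most comparisons. Gabbr2, the subunit that couples to the G protein, had 0.12 ± 0.06 in hMet males, 0.18 ± 0.07 in WT males (adjusted p = 0.563), 0.05 ± 0.06 in hMet females and 0.09 ± 0.06 in WT females in the vHPC. In the dHPC it had 0.03 ± 0.08 in hMet males, 0.14 ± 0.08 in WT males, -0.01 ± 0.08 in hMet females and -0.05 ± 0.08 in WT females. Gabbr1, the subunit that binds GABA, was past unadjusted p of 0.05 only in hMet males in the dHPC, with 0.19 ± 0.08 (adjusted p = 0.753).

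Gphn encodes gephyrin, which holds receptors at inhibitory synapses, and was higher in the vHPC of hMet males and the dHPC of WT females at unadjusted p under 0.05. Its log2 fold changes in the vHPC were 0.15 ± 0.05 in hMet males (adjusted p = 0.124), 0.06 ± 0.06 in WT males, 0.02 ± 0.05 in hMet females and 0.02 ± 0.05 in WT females. In the dHPC they were 0.08 ± 0.06 in hMet males, 0.04 ± 0.06 in WT males, -0.01 ± 0.06 in hMet females and 0.15 ± 0.06 in WT females (adjusted p = 0.745).

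Of the genes of GABA synthesis, Gad1 had small positive fold changes in the vHPC and no call. It had 0.10 ± 0.05 in hMet males, 0.09 ± 0.06 in WT males, 0.04 ± 0.05 in hMet females and 0.11 ± 0.05 in WT females, none at unadjusted p under 0.05, and its mean over the 4 groups was 0.09 ± 0.03 (adjusted p = 0.141). In the dHPC Gad1 had 0.08 ± 0.10 in hMet males, 0.15 ± 0.10 in WT males, 0.09 ± 0.10 in hMet females and -0.02 ± 0.10 in WT females. Gad2 was past unadjusted p of 0.05 in WT females in the vHPC alone, with 0.13 ± 0.05 (adjusted p = 1.00). Slc32a1 was past it in no comparison and lay between -0.10 and 0.19.

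Slc6a11, the GABA transporter of astrocytes, was lower in hMet males in the vHPC and in WT females in the dHPC at unadjusted p under 0.05. In the vHPC it had -0.22 ± 0.09 in hMet males (adjusted p = 0.204), -0.20 ± 0.10 in WT males, 0.03 ± 0.09 in hMet females and 0.08 ± 0.09 in WT females. Its males minus females difference there was -0.26 ± 0.09 (adjusted p = 0.31). The chloride exporter gene Slc12a5 had a males minus females difference of 0.10 ± 0.04 (adjusted p = 0.33). In the dHPC Slc6a11 had 0.05 ± 0.14 in hMet males, -0.06 ± 0.14 in WT males, -0.09 ± 0.14 in hMet females and -0.36 ± 0.14 in WT females (adjusted p = 0.745). Slc12a5 was past unadjusted p of 0.05 in 1 comparison, with 0.10 ± 0.04 in hMet males in the vHPC (adjusted p = 0.175). Abat was past it in no comparison and lay between -0.16 and 0.14. Of 10 astrocyte markers, 2 were higher and 4 lower in hMet males in the vHPC at unadjusted p under 0.05, beside 9.33% and 8.98% of all genes. In WT females in the dHPC 0 were higher or lower, beside 2.58% and 3.91% of all genes. The part of these markers in the Slc6a11 values was not tested. Slc12a2 was past an unadjusted p of 0.05 in no comparison either and had the largest errors of the 30 (0.21 to 0.30). It was negative in all 4 groups of the dHPC, the only gene of the 30 that was.

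Of the interneuron genes, Cck and Cnr1 mark the same basket cells, which release cholecystokinin and carry cannabinoid receptors, and their fold changes had opposite signs in the vHPC of hMet males. Cck had -0.15 ± 0.06 in hMet males (adjusted p = 0.212), -0.18 ± 0.07 in WT males (adjusted p = 0.619), 0.02 ± 0.06 in hMet females and -0.09 ± 0.06 in WT females. Cnr1 had 0.22 ± 0.08 in hMet males (adjusted p = 0.158), 0.08 ± 0.09 in WT males, 0.01 ± 0.08 in hMet females and 0.21 ± 0.08 in WT females (adjusted p = 1.00). Cck is also made by pyramidal cells. In the dHPC Cck had -0.14 ± 0.12 in hMet males, -0.20 ± 0.12 in WT males, 0.15 ± 0.12 in hMet females and 0.17 ± 0.12 in WT females. Its males minus females difference in the dHPC was -0.33 ± 0.12 (adjusted p = 0.623). Cnr1 in the dHPC had -0.02 ± 0.12 in hMet males, 0.03 ± 0.12 in WT males, 0.08 ± 0.12 in hMet females and 0.16 ± 0.12 in WT females, none past an unadjusted p of 0.05.

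Reln and Htr3a were positive in most groups. Reln, a secreted protein of interneurons of the outer layers, had 0.17 ± 0.10 in hMet males, 0.11 ± 0.11 in WT males, 0.14 ± 0.10 in hMet females and 0.10 ± 0.10 in WT females in the vHPC. In the dHPC it had -0.14 ± 0.13 in hMet males, 0.16 ± 0.12 in WT males, 0.02 ± 0.12 in hMet females and -0.28 ± 0.12 in WT females (adjusted p = 0.763). Reln was thus positive in every group of the vHPC, with no call.

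Htr3a had 0.04 ± 0.10 in hMet males, 0.14 ± 0.11 in WT males, -0.06 ± 0.10 in hMet females and 0.18 ± 0.10 in WT females in the vHPC. It had 0.08 ± 0.11 in hMet males, 0.14 ± 0.10 in WT males, 0.14 ± 0.10 in hMet females and 0.18 ± 0.10 in WT females in the dHPC, where its mean over the 4 groups was 0.14 ± 0.05 (adjusted p = 0.572). Erbb4 was past unadjusted p of 0.05 in WT females in the vHPC, with 0.22 ± 0.08 (adjusted p = 1.00). Pvalb, Sst, Lhx6, Nxph1 and Dlx1 were past it in no comparison, and the first 4 of these lay between -0.25 and 0.21. In all, 14 of the 30 genes were past it in no comparison, 9 in 1 and 7 in 2 or more, and the matching shares of all genes were not counted. Lhx6 and Dlx1 are transcription factors of developing and mature interneurons, and Dlx1 was positive in 8 of 8 comparisons, between 0.03 and 0.15. Dlx1 has an antisense gene on the other strand and Gad1 overlaps another, so the limit on strand given for Gabrb1 holds for both.

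**Figure D4:**
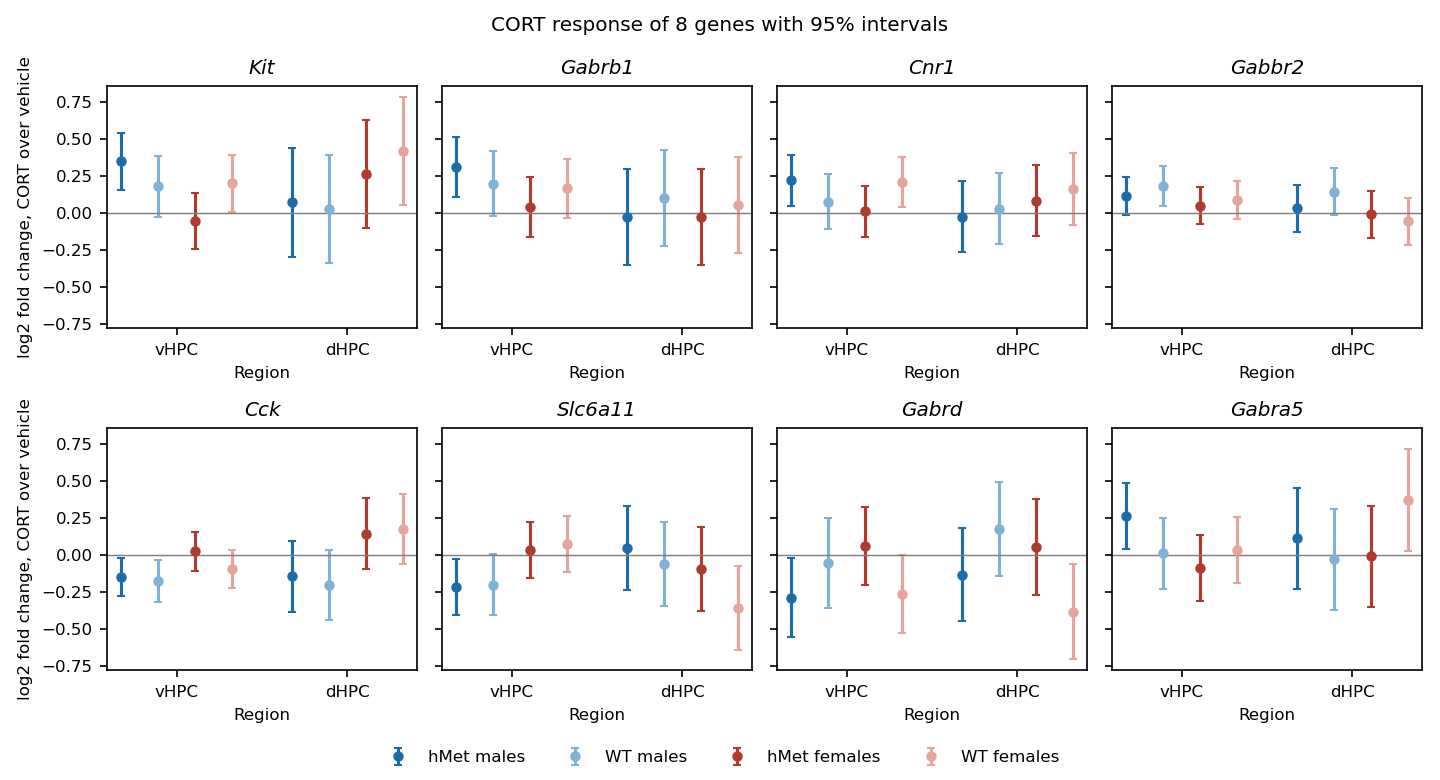
Log2 fold change with CORT over vehicle (y axis) for 8 genes in the 8 comparisons, with points colored by group and bars for the 95% interval of the moderated fit. Kit and Gabrb1 sit above 0 in males in the vHPC (0.35 and 0.31 in hMet males), while Cck, Slc6a11 and Gabrd sit below 0 in hMet males there.

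Averaged over all 4 groups of the vHPC, 11 of the 30 genes were higher and 1 lower with CORT at unadjusted p under 0.05, beside 6.91% and 7.67% of all genes, and 0 passed at adjusted p under 0.05, which 0.626% of all genes did. The 12 were Gabrb1, Gabrb2, Gabbr2, Gphn, Gad1, Gad2, Abat, Reln, Lhx6, Cnr1 and Kit, which were higher, and Cck, which was lower. The smallest adjusted p belonged to Gabrb1 (0.18 ± 0.05, adjusted p = 0.0892), Kit (0.17 ± 0.05, adjusted p = 0.0911) and Gabbr2 (0.11 ± 0.03, adjusted p = 0.103). With hMet females left out of the mean, Kit (0.24, adjusted p = 0.0222), Gabrb1 (0.23, adjusted p = 0.0385) and Cck (-0.14, adjusted p = 0.0499) were at adjusted p under 0.05. For these genes hMet females had the fold changes nearest to 0. With any other group left out, 0 of the 30 genes were at adjusted p under 0.05. In the vHPC 9 genes were positive in all 4 groups and 0 were negative in all 4. The share of all genes with either pattern was not counted, so this is a description only.

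The mean of females in the vHPC had 2 genes higher and 0 lower at unadjusted p under 0.05, beside 1.89% and 1.97% of all genes. These were Gad2 (0.10 ± 0.04, adjusted p = 0.998) and Lhx6 (0.16 ± 0.06, adjusted p = 0.998), and 0 of the 30 passed at adjusted p under 0.05, where 0% of all genes did. In the dHPC the mean of 4 groups had 2 higher and 0 lower, Htr3a and Kit (0.20 ± 0.09, adjusted p = 0.705), beside 2.83% and 3.99% of all genes, with 0 at adjusted p under 0.05 beside 0.0273%. The mean of males in the dHPC had Gabbr1 higher (0.16 ± 0.06, adjusted p = 0.46) and Cck lower (-0.17 ± 0.08, adjusted p = 0.695), beside 3.05% and 3.8% of all genes, with 0 at adjusted p under 0.05 beside 0.197%. Kit (0.34 ± 0.13, adjusted p = 0.936) and Htr3a (0.16 ± 0.07, adjusted p = 0.936) were higher and Slc6a11 (-0.22 ± 0.10, adjusted p = 0.936) and Gabrg1 (-0.25 ± 0.11, adjusted p = 0.936) lower in the mean of females in the dHPC, beside 2% and 2.81% of all genes, with 0 at adjusted p under 0.05 beside 0%.

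**Figure D5:**
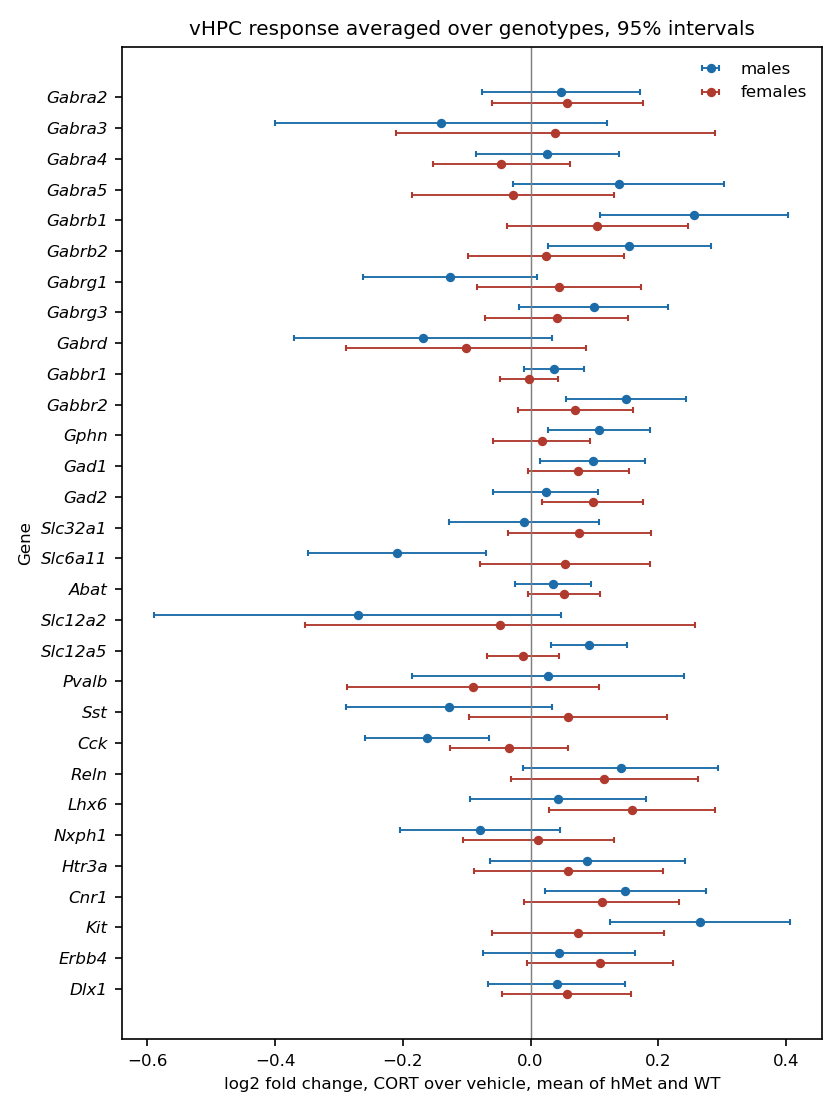
Log2 fold change with CORT over vehicle in the vHPC (x axis), averaged over hMet and WT, in males (blue) and females (red) for the 30 genes, with bars for the 95% interval. Kit (0.27) and Gabrb1 (0.26) in males lie farthest to the right of 0 among male means, and the intervals of the sexes overlap for them.

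The responses of groups were also set against each other directly, and 0 of the 30 genes passed at adjusted p under 0.05. In the vHPC the hMet minus WT difference had 0 of the 30 genes at unadjusted p under 0.05 in males, beside 3.28% of all genes, and 1 (Gabrg3) in females, beside 4.87%. Males minus females had 2, Slc6a11 and Slc12a5, beside 11.8%, which is below the share of all genes. In the dHPC these counts were 0 in males, beside 3.36%, 0 in females, beside 4.84%, and 4 for males minus females, beside 5.82%. The 4 were Cck, Gabrg1 (0.34 ± 0.16, adjusted p = 0.835), Gabbr1 (0.20 ± 0.08, adjusted p = 0.743) and Abat (0.20 ± 0.08, adjusted p = 0.743). At adjusted p under 0.05 the share of all genes was 0% for both differences between genotypes in each region, and 0.0142% in the vHPC and 0.00547% in the dHPC for males minus females.

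Other genes of the GABA system, 38 of 40 listed that were measured in the vHPC, were more often higher than lower in both groups of males there. The 30 genes had 7 higher and 3 lower in hMet males and 1 higher and 1 lower in WT males at unadjusted p under 0.05. At unadjusted p under 0.05, 11 were higher and 2 lower in hMet males, beside 9.33% and 8.98% of all genes, and 5 were higher and 1 lower in WT males, beside 3.43% and 3.81%. In the mean of males 15 were higher and 2 lower, beside 10% and 10.5% of all genes. Of these, Shisa7, an auxiliary protein of GABA-A receptors (0.27 ± 0.05, adjusted p = 0.00497), and Glul, the glutamine synthetase of astrocytes (0.16 ± 0.04, adjusted p = 0.0237), rose. Their median in the mean of males was 0.08, against -0.01 over all genes. Other interneuron genes (42 of 44 measured) were split, with 5 higher and 5 lower in the mean of males, beside the same 10% and 10.5%, and a median of -0.04. This list shares Calb2 with the thalamic markers, Tac1 and Penk with the striatal markers and Prox1 with the excitatory neuron markers used below. Calb1, which is also a gene of granule cells and pyramidal cells, rose (0.26 ± 0.07, adjusted p = 0.0415). In the dHPC of WT females 0 of 37 other GABA genes were higher and 4 lower, and 0 of 41 other interneuron genes were higher and 2 lower, beside 2.58% of all genes higher and 3.91% lower.

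Markers of other cell types and of tissue next to the hippocampus also differed between CORT and vehicle in the same comparisons. In the vHPC of hMet males all 8 microglia markers and 7 of 10 oligodendrocyte markers were lower at unadjusted p under 0.05, with medians of -0.47 and -0.52. Of all genes 8.98% were lower there. All 8 of 8 striatal markers were negative, with a median of -0.62, where 48.3% of all genes were positive. Some of these had low levels, such as Adora2a at 0.96 log2 CPM in the vHPC. In the mean of males there, all 8 microglia markers were lower (median -0.37, 4 at adjusted p under 0.05), and of 10 astrocyte markers 2 were higher and 5 lower. Of all genes 10% were higher and 10.5% lower at unadjusted p under 0.05, and 3.58% passed at adjusted p under 0.05 in either direction. In the dHPC of WT females, Gabrd, Slc6a11 and Reln were lower and Gabra5, Gphn and Kit higher at unadjusted p under 0.05. All 8 thalamic markers were negative there, with a median of -1.38, and 5 were at unadjusted p under 0.05, beside 3.91% of all genes lower. In WT females in the vHPC all 10 oligodendrocyte markers were negative, where 47.9% of all genes were positive. Their median was -0.29, with 0 at unadjusted p under 0.05. Choroid plexus markers in the vHPC had a median of 2.50 for hMet females and medians of -0.56 for hMet males, -1.06 for WT males and -0.78 for WT females, with 0 of 7 markers at unadjusted p under 0.05 in each group. Of 8 hippocampal excitatory neuron markers 2 were higher and 0 lower in hMet males in the vHPC, beside 9.33% and 8.98% of all genes. The part of these shifts in the results above was not tested.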

How the data were processed

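Per the paper's methods, the authors removed reads of low quality, aligned to GRCm38 (mm10) by STAR, took counts per gene by featureCounts and fitted limma-voom, in versions not given in the sources used here. The deposited mean level, fold change and standard error are in log2 units. The moderated t is a score from limma, deposited by the authors. For each single comparison the p-value and its adjustment are the authors' own. Those of means and differences were computed here from the deposited fold changes and errors. The tables are the authors' comparisons of CORT with vehicle, and what is reported starts from them. The tables give no depth for a library, and the precision is that of the standard errors. A text in the labels speaks of 3 replicates, and the series design of 2 weeks and of males alone; the sample labels were followed.

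The moderated standard error was the fold change over t. The p was recomputed from t and matched the deposited one to a relative deviation of at most 1.63e-06. A mean or difference of comparisons was tested with the root of the summed squared errors, on the fit's degrees of freedom. The test was two-sided, with Benjamini-Hochberg adjustment over all genes of a region. It was also run on simulated data in which the comparisons were drawn independently. The simulation therefore cannot check the assumption that comparisons in the vHPC do not covary. Replicates are libraries of pooled animals. Members and lists were chosen with earlier results of these data known. Described with values in all comparisons were 12 genes: those at adjusted p under 0.05 in any result or unadjusted p under 0.05 in 2 or more comparisons, then those of smallest p in a mean of 4 groups; genes in 1 comparison were named there. Coordinates and exon lengths are from GENCODE on GRCm38, promoters from RefSeq on GRCm38.p6. Software was scipy 1.17.1, pandas 2.3.3 and numpy 2.4.6, with matplotlib 3.10.9 for plots, in Python 3.11.15. Alternatives were no adjustment, a filter at 1 log2 CPM, unmoderated errors, centring, the study's rule (p under 0.05, fold change over 1.3), precision weights and leaving a group out of a mean.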

Additional observations from a re-analysis of the deposited data

How the results depend on the processing

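No paired analysis was possible because the tables hold no values per library, and for the same reason no library could be left out. Counts below are of the 30 genes at the threshold. The shares of all genes without adjustment are given above, and those under the other alternatives were not counted. The 2 calls in the mean of males in the vHPC became 4 when p was adjusted over genes of at least 1 log2 CPM (Cck, adjusted p = 0.0383, and Gabbr2, adjusted p = 0.0481, were added), 0 with unmoderated standard errors and 0 at unadjusted p under 0.05 with a fold change over 1.3. In the mean of 4 groups in the vHPC the count of 0 became 3 without hMet females and stayed 0 without any other group. In WT females in the dHPC the count of 0 became 2 under the study's rule, Kit (0.42) and Gabrd (-0.38). Without adjustment the counts in the vHPC were 10 in hMet males, 2 in WT males, 5 in WT females, 12 in the mean of 4 groups, 10 in the mean of males, 2 in the mean of females, 1 for the difference between females and 2 for males minus females. In the dHPC they were 1 in hMet males, 6 in WT females, 2 in the mean of 4 groups, 2 in the mean of males, 4 in the mean of females and 4 for males minus females. The count in the mean of males in the vHPC became 3 with centring and 3 with precision weights, Cck being added (adjusted p = 0.0485 and 0.0466). The median difference in level between regions was 0.25 after centring.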
